A study of Mus musculus with 6 samples.

Results

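Homeobox genes outside the Hox clusters were compared between 2 populations of cells sorted from the neonatal mouse bladder. The members were all genes whose single platform symbol fits one of the Meis, Pbx, Prrx, Msx, Dlx, Pitx, Irx, Lhx, Alx, Barx, Cux, Tshz, Zfhx, Tgif or Nkx family names, or that of the Six-family, followed by a number, with Isl1 and Shox2 added. This gave 66 genes on 126 probe sets, of 18193 named genes on the array. The first population, called double-positive here, carried both reporters (EGFP positive, EYFP positive, 3 arrays). The second, called single-positive, was EGFP positive and EYFP negative (3 arrays). All cells came from male FVB/N mice at postnatal day 2 with SMAA/EYFP and SMGA/EGFP transgenes, so that EYFP followed the promoter of smooth muscle alpha actin (Acta2) and EGFP that of smooth muscle gamma actin (Actg2). Both are labelled as cells of the detrusor, the bladder's muscle. Samples were not pooled. Whether arrays of a group stem from different animals is not stated in the labels, and p-values therefore measure a spread between samples that may be technical only.

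Homeobox genes encode transcription factors that bind DNA through a homeodomain and set regional and cell identity during development. Outside the Hox clusters they fall into structural classes. TALE proteins such as Meis and Pbx bind DNA beside Hox proteins, Six-family proteins work with Eya coactivators and Dach corepressors, and LIM homeodomain proteins are joined to one another by Ldb adaptors. Tshz3 is required for smooth muscle differentiation in the mouse ureter, and Prrx1 and Prrx2 are markers of limb and craniofacial mesenchyme.

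Signal intensities are in arbitrary units, with array medians of 147 to 199.8 in the double-positive arrays, against 153 to 199 in the single-positive arrays. All 8 smooth muscle markers fixed for the comparison fell in the double-positive arrays, with summed signals of 17849 to 45196 in double-positive arrays, against 189993 to 232802 in single-positive arrays. Among them Actg2, the gene behind the EGFP reporter, averaged 10595 ± 3281 in double-positive arrays, against 60131 ± 8405 in single-positive arrays (mean and SD, n = 3 each; limma adjusted p = 0.000246). Acta2 signal was 59801 ± 11165 in double-positive arrays, against 62346 ± 9277 in single-positive arrays (mean and SD, n = 3 each) on its brightest probe set, with overlapping groups. Its dimmer probe sets gave log2 fold changes of -4.31 and -3.07, both without overlap. Over all probe sets the first of these passed (limma adjusted p = 0.000483) and the second did not (limma adjusted p = 0.0765). None of 7 fibroblast markers passed, and their summed signals were 243071 to 334929 in double-positive arrays, against 247279 to 287709 in single-positive arrays. Of the urothelium markers 4 of 8 fell (sums of 3428 to 3959 in the double-positive arrays, against 16519 to 26529 in the single-positive arrays), and 1 of 4 pericyte markers fell. No marker was listed at 0. In sorted bulk samples of this kind, fewer cells of a type and less RNA per cell cannot be told apart.

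Among the homeobox members 1 gene was higher and 1 was lower in the double-positive cells. Prrx2, a paired-like factor of mesenchyme, was 3.43-fold higher in mean signal, and Zfhx4, a large factor with zinc fingers and several homeodomains, was 4.41-fold lower. The other 34 of the 36 members tested did not pass an adjusted p of 0.05 in limma. A gene was tested on its brightest probe set, on the log2(signal + 25.0) scale, when the mean over the 6 arrays lay above the 40th percentile of probe sets, a signal near 87.6. The share of tested members that passed was 5.56%, against 6.37% of all 13464 genes tested (1.98% higher and 4.38% lower), which is near the background and is no result about the members. No overlap between groups was seen in 10 of the 36 (27.8%, against 22.4% of all genes), of which 4 were higher (10.5% of all genes) and 6 lower (11.9% of all genes). The median log2 fold change of the tested members was -0.29, beside 0.02 over all genes tested, and that of the absolute values was 0.47, beside 0.32. The sign of the members' median was not stable: it ran from -0.34 to 0.18 over the alternatives and was positive with the filter at the 60th percentile (0.18, 21 members), without single-positive array 3 (0.12) and without a filter (0.019, 66 members). The median over all genes ran from 0.0015 to 0.075 over the same alternatives. At an unadjusted p below 0.05 there were 8 members (22.2%, against 17.6% of all genes tested).

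**Figure D1:**
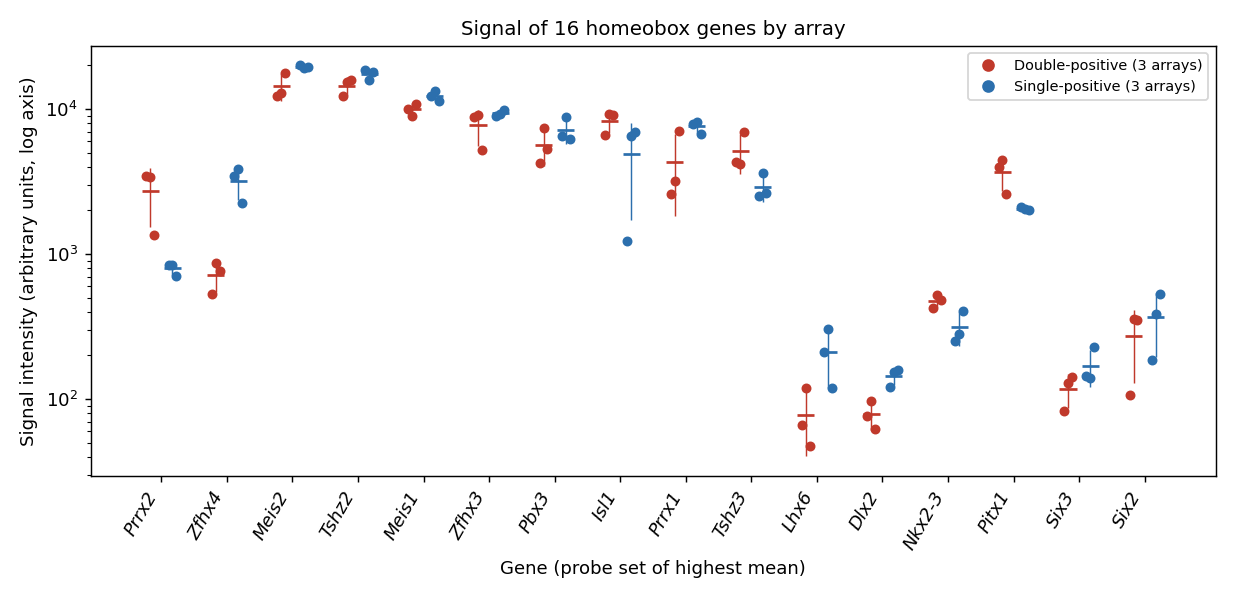
Signal intensity (log axis, arbitrary units) of 16 homeobox genes on each of the 3 double-positive and 3 single-positive arrays, with horizontal lines at group means and vertical lines for 1 SD. Prrx2 (1359 to 3458 against 709 to 842) and Zfhx4 (534 to 870.1 against 2242 to 3851) are the genes that passed the test; of the others, Meis2, Meis1, Tshz3, Pitx1, Nkx2-3, Dlx2 and Lhx6 have groups that do not overlap.

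**Figure D2:**
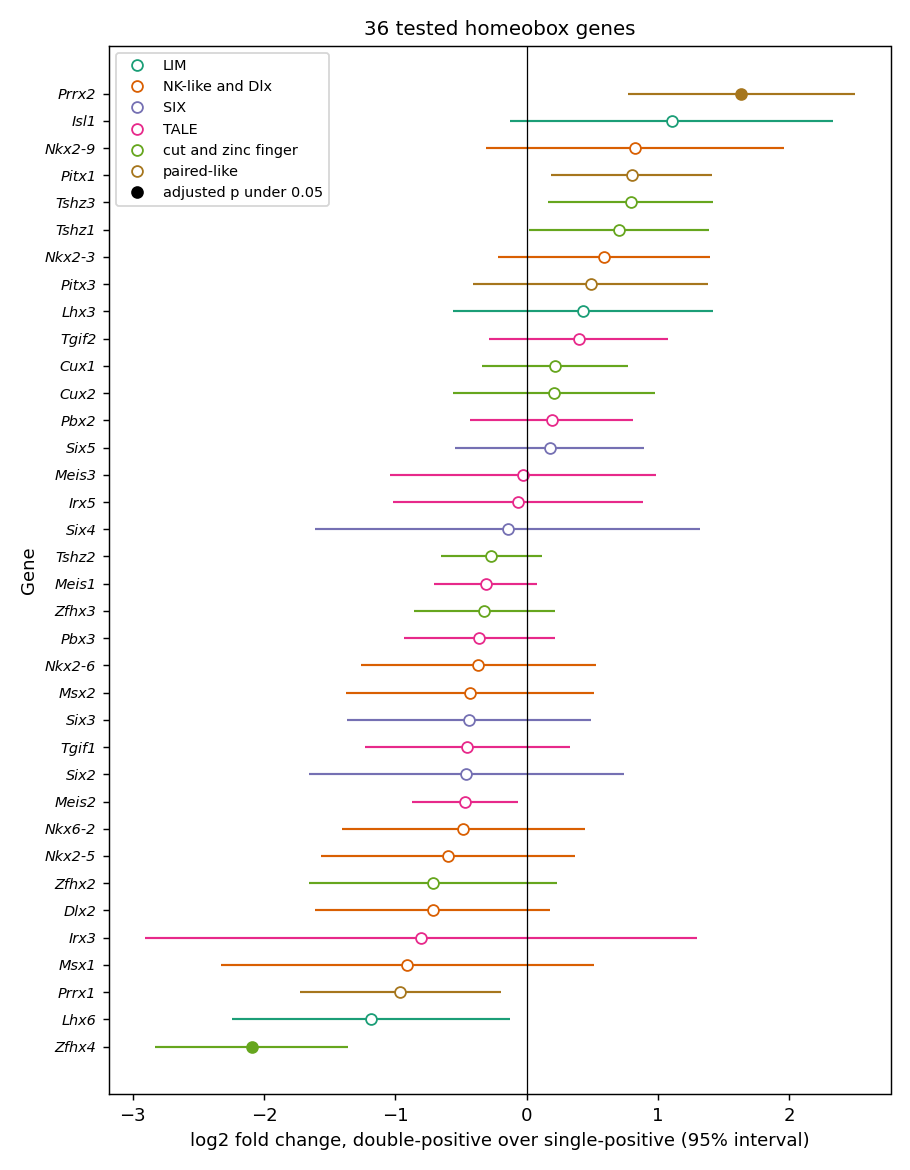
Log2 fold change, double-positive over single-positive, of the 36 tested homeobox genes with 95% intervals of the limma fit, coloured by structural class. Filled points passed an adjusted p of 0.05 (Prrx2 at 1.63 and Zfhx4 at -2.09), and most of the remaining intervals include 0.

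The paired-like class held the higher gene. Prrx2 signal was 3458, 3395 and 1359 in the double-positive arrays, against 840, 842 and 709 in the single-positive arrays. Every double-positive value lay above every single-positive value, and double-positive array 3 stood well below the other two of its group. The log2 fold change was 1.63 (SE 0.39, 95% interval 0.77 to 2.50, limma adjusted p = 0.033). A single probe set carried the symbol. Over all 27022 tested probe sets its limma adjusted p was 0.0634, and over genes it was 0.0529 without the signal filter and 0.0638 without a variance trend. It also missed the threshold when double-positive array 1 or 2 or any of the 3 single-positive arrays was left out, with limma adjusted p between 0.0808 and 0.121, and it was 0.0034 without double-positive array 3.

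Prrx1, the paralogue of Prrx2 with overlapping roles in mouse limb and skull mesenchyme, had the opposite sign and did not pass. Its signal was 2576, 3178 and 7113 in the double-positive arrays, against 7941, 8133 and 6726 in the single-positive arrays. Double-positive array 3 lay within the single-positive range, and the other 2 double-positive arrays lay below it. The log2 fold change was -0.96 (95% interval -1.73 to -0.19, limma adjusted p = 0.163), and without double-positive array 3 it was -1.40 (limma adjusted p = 0.00647). Leaving out that array also raised the share of all genes called, to 8.04% from 6.37%. Prrx1 did not pass when any other single array was left out, with limma adjusted p up to 0.422. The other 4 tested Prrx1 probe sets were also negative, from -1.06 to -0.32. Array 3 thus held the lowest Prrx2 and the highest Prrx1 signal of its group.

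Prrx2 and Prrx1 had log2 fold changes of opposite sign in the same arrays, though Prrx1 did not pass and the Prrx2 call depended on the arrays. For this reason the upstream sequences of the paralogue pair are shown. Each is the 250 bases before the annotated start, from RefSeq (GRCm38.p6), written from 5' to 3' on the gene's strand, with TAAT, the core that many homeodomains bind, in capitals on either strand. The Prrx2 window lies at chr2:30845117-30845366 on the plus strand and the Prrx1 window at chr1:163313651-163313900 on the minus strand.
Prrx2: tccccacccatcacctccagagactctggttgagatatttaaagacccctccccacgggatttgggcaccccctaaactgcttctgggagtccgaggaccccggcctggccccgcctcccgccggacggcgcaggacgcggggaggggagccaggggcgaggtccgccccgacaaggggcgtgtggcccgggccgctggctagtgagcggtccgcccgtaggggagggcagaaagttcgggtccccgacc
Prrx1: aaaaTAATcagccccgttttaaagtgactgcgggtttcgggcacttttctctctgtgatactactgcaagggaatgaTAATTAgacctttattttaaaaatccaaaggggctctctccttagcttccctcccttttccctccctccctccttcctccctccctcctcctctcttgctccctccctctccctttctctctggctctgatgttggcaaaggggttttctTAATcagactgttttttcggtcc
The Prrx2 window held 21 CG dinucleotides, 70.0% G and C and no TAAT. The Prrx1 window held 4 CG dinucleotides, 47.6% G and C and 4 matches to TAAT, of which a forward and a reverse one overlap.

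Upstream windows were found for 49 of the 66 members (59 windows, since a gene can have several starts). Their median content of G and C was 62.8% and their median number of CG dinucleotides was 16, against 52.4% and 6 over all 32851 windows of the same length. TAAT was present on either strand in 40.7% of the members' windows and in 54.9% of all windows. The Meis core TGACAG was present in 15.3% against 15.9%, the TATA box TATAAA in 8.47% against 12.4%, and the CArG box, which serum response factor binds in muscle genes, in 1.69% against 1.47%. These are matches of letters and do not mark bound sites.

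Pitx1, which gives hindlimb identity in the mouse, read 4005, 4465 and 2609 in the double-positive arrays and 2106, 2059 and 2006 in the single-positive arrays. All double-positive values were the higher ones, but the log2 fold change of 0.80 did not pass (95% interval 0.19 to 1.41, limma adjusted p = 0.144). Without double-positive array 3 it was 1.03 with a limma adjusted p of 0.0368. Pitx1 did not pass when any other single array was left out, with limma adjusted p up to 0.361. A dimmer Pitx1 probe set gave 0.06. Pitx3, known from lens and midbrain dopamine neurons, averaged 208 ± 14.3 in double-positive arrays, against 146 ± 51.9 in single-positive arrays (mean and SD, n = 3 each) with overlapping groups.

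The cut and zinc finger class held the lower gene and was the only one of the 6 classes with every member above the signal filter (8 of 8 tested). Zfhx4 signal was 534, 870.1 and 761 in the double-positive arrays, against 3460.1, 3851 and 2242 in the single-positive arrays. All double-positive values were below all single-positive values. The log2 fold change was -2.09 (SE 0.33, 95% interval -2.83 to -1.36, limma adjusted p = 0.0042). It passed whichever of the 6 arrays was left out, with limma adjusted p from 0.0074 to 0.0291 and log2 fold changes from -2.33 to -1.90. The other Zfhx4 probe set read 562, 836 and 1019 in the double-positive arrays, against 1161, 2194 and 2186 in the single-positive arrays. Its groups did not overlap either, but its log2 fold change of -1.15 did not pass over all probe sets (limma adjusted p = 0.179). The smooth muscle markers fell in the same arrays, with the sums given above, and their part in the Zfhx4 result was not tested.

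Zfhx3, the close relative of Zfhx4, did not pass. It read 8871, 9091 and 5221 in the double-positive arrays, against 9004, 9308 and 9871 in the single-positive arrays, a log2 fold change of -0.32 (95% interval -0.86 to 0.21). Its double-positive array 3 was again the one apart. Zfhx2 was dim, with 49.9, 108 and 58.1 in double-positive arrays, against 127, 119 and 141 in single-positive arrays.

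The 3 teashirt genes differed in sign and none passed. Tshz3 read 4286, 4192 and 6975 in the double-positive arrays, against 2502, 3638 and 2623 in the single-positive arrays. There was no overlap between the groups, and the log2 fold change was 0.79 (95% interval 0.16 to 1.42, limma adjusted p = 0.16). Tshz1 had a log2 fold change of 0.70 (95% interval 0.01 to 1.39, limma adjusted p = 0.273) with overlapping groups. Tshz2 read 12267, 15388 and 15939 in the double-positive arrays, against 18504, 15825 and 17969 in the single-positive arrays, a log2 fold change of -0.27, while another probe set gave 0.42. The cut genes Cux1 and Cux2 had 0.22 and 0.21 on their brightest probe sets, and 95% intervals of -0.34 to 0.77 and -0.56 to 0.98.

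The TALE class had 9 of 14 members tested and none passed, 7 with a negative and 2 with a positive log2 fold change. Meis2, a partner of Hox and Pbx proteins, read 12343, 12831 and 17784 in the double-positive arrays, against 19977, 19323 and 19451 in the single-positive arrays. All double-positive values were below the single-positive ones. The log2 fold change was -0.47 (95% interval -0.87 to -0.07, limma adjusted p = 0.197), and without double-positive array 3 it was -0.64 (limma adjusted p = 0.0346). Meis2 did not pass when any other single array was left out, with limma adjusted p up to 0.489. All 4 tested Meis2 probe sets were negative, from -0.67 to -0.43. Meis1 read 9978, 8952 and 10912 in double-positive arrays, against 12341, 13301 and 11389 in single-positive arrays, also without overlap, and its log2 fold change was -0.31 (95% interval -0.71 to 0.08). Its 2 dimmer tested probe sets had the opposite sign, 0.13 and 0.50, so the Meis1 direction depends on the probe set.

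Pbx3 and Pbx2, which bind DNA together with Meis and Hox proteins, had log2 fold changes of -0.36 (95% interval -0.94 to 0.21) and 0.19 (95% interval -0.43 to 0.81) with overlapping groups. Tgif1 and Tgif2, corepressors of TGF-beta signalling, had -0.45 and 0.40 and overlapped too. Of the Iroquois genes only Irx3 and Irx5 passed the filter, and Irx1, Irx2, Irx4 and Irx6 did not.

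Several members varied more between arrays of a group than between the groups. Irx3 signal was 5.01, 65.0 and 236 in the double-positive arrays and 12.0, 295 and 293 in the single-positive arrays, so that the array numbered 1 was lowest in both groups. Six4, a Six-family factor of muscle progenitors, read 136, 632 and 381 in double-positive arrays, against 146, 373 and 829.9 in single-positive arrays. Six2, known from nephron progenitors, read 107, 356 and 349 in double-positive arrays, against 187, 388 and 533 in single-positive arrays. In all 3 genes the number 1 array of each group was the lowest. Msx1 and Isl1 also varied more than Six2. Msx1 was lowest in double-positive array 1 but in single-positive array 2, while Isl1 was lowest in array 1 of both groups, by a wide margin only in the single-positive one. The pooled SD within groups was 1.68 for Irx3, 1.10 for Six4, 1.07 for Msx1, 1.01 for Isl1 and 0.80 for Six2 on the log2 scale, against a median of 0.38 over all genes tested and 0.34 over the tested members.

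Of the 36 members, 7 (Irx3, Isl1, Lhx3, Nkx2-3, Six2, Six4 and Tshz1) were lowest in array 1 of both groups, 19.4% against 11.7% of all genes tested. Counted in each group alone, 18 of the 36 were lowest in double-positive array 1 and 15 in single-positive array 1. Over all 13464 genes these counts were 3948 and 4410. With such counts, members lowest in both do not by themselves show a link between same-numbered arrays, which was not tested. Array 2 was lowest in both groups for 1 member and array 3 for 3 members, 2.78% and 8.33% against 11.8% and 12.7% of all genes. Of the 6 skeletal muscle markers, Myog and Myod1 were also lowest in array 1 of both groups, and the others were not. Myog, a factor of muscle differentiation, read 38.4, 448 and 365 in double-positive arrays, against 34.8, 1405 and 985 in single-positive arrays. Myod1, its upstream regulator, read 18.9, 119 and 154 in double-positive arrays, against 60.3, 412 and 260.2 in single-positive arrays. Pax7 stayed between 3.03 and 3.91 in all double-positive arrays and read 3.98, 188 and 334 in the single-positive arrays, while Myf5 was not lowest in double-positive array 1 (159, 252 and 39.4) and read 18.7, 25.2 and 18.6 in single-positive arrays. The summed signal of all 6 skeletal muscle markers, which Acta1 and Des dominate and of which 2 fell, was 1393 to 3727 in double-positive arrays, against 43142 to 52707 in single-positive arrays. Acta1 was lowest in double-positive array 1 but highest in single-positive array 1 (45133, 35935 and 33996 in single-positive arrays). Des was not lowest in single-positive array 1 (7456, 7255 and 7548), and the summed signal was highest there (52707). The part of skeletal muscle cells in the member signals was not tested.

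**Figure D3:**
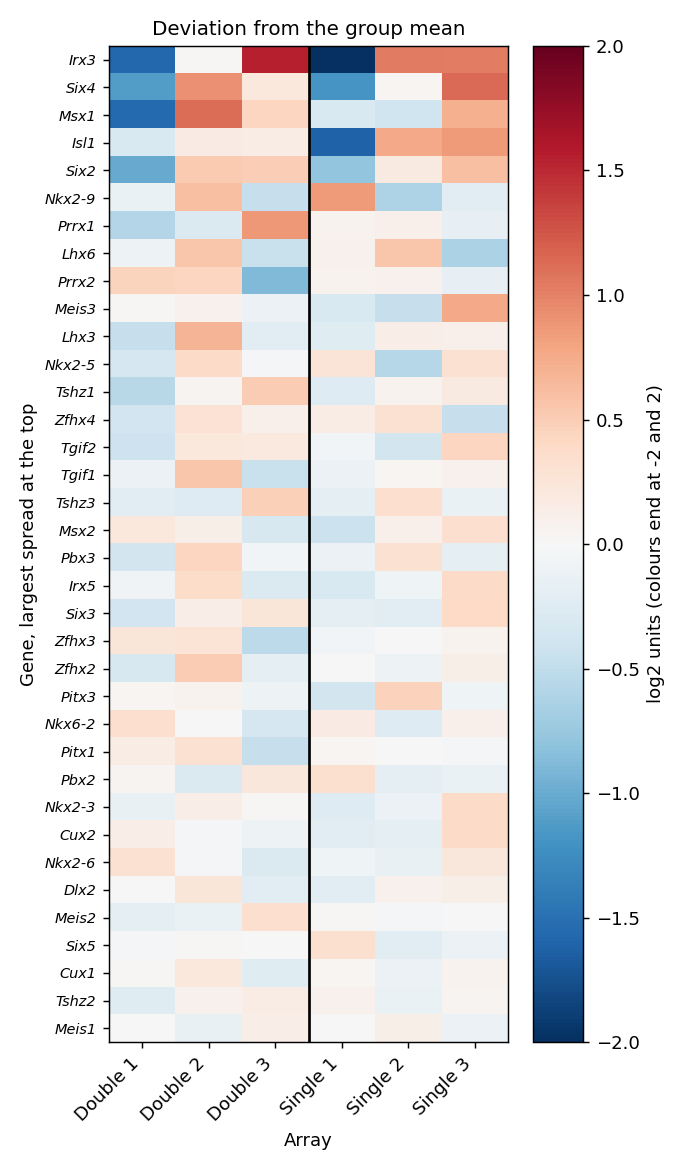
Deviation of each array from the mean of its own group on the log2(signal + 25.0) scale for the 36 tested homeobox genes, sorted by spread within groups, with double-positive arrays left of the line and single-positive arrays right of it. Of the 5 genes of widest spread, Irx3, Six4 and Six2 are blue (low) in array 1 of both groups, Msx1 is lowest in double-positive array 1 and single-positive array 2, and Isl1 is low chiefly in single-positive array 1.

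The Six-family class had 4 of 5 members tested, none passed and all 4 overlapped between groups, with log2 fold changes from -0.46 (Six2) to 0.18 (Six5). The widest of these intervals was that of Six4, -1.61 to 1.32. Among the partners listed for Six-family and LIM proteins, 15 of 16 genes were tested, 1 was higher, 1 was lower and 13 did not pass (13.3% passed, beside 6.37% of all genes tested), with a median log2 fold change of -0.07 beside 0.02. Dach1, a corepressor that works with Eya and Six-family proteins, read 11282, 12708 and 8092 in the double-positive arrays, against 1779, 2474 and 2245 in the single-positive arrays. It was 4.94-fold higher, at 2.28 on the log2 scale (SE 0.25 and adjusted p by limma = 0.000674), and it passed whichever array was left out. Eya1, a Six-family coactivator, showed the array 1 pattern again, with 105, 2626 and 2986 in double-positive arrays, against 334, 7565 and 5666 in single-positive arrays, and did not pass (95% interval -4.20 to 1.60).

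Lmo2, a LIM-only protein of blood and endothelial cells, fell to 1480.2, 1765 and 1845 in the double-positive arrays, against 2832, 4513 and 4016 in the single-positive arrays. Every double-positive value was below every single-positive value, and the log2 fold change was -1.13 (SE 0.28 and adjusted p by limma = 0.0372). The call was lost without double-positive array 1 or 2 or single-positive array 2 or 3. In the endothelium list 4 of 7 markers fell, with summed signals of 5352 to 8059 in double-positive arrays, against 30627 to 39524 in single-positive arrays. In the macrophage list 5 of 5 fell, with sums of 7267 to 14198 in double-positive arrays, against 58608 to 77007 in single-positive arrays. The part of these cells in the Lmo2 result was not tested.

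Of the LIM homeodomain genes 3 of 9 were tested and none passed. Isl1, a factor of heart, motor neuron and hindlimb progenitors, read 6643, 9229 and 9079 in the double-positive arrays and 1227, 6484 and 6919.5 in the single-positive arrays. Single-positive array 1 lay far below the other 5 arrays, and the highest single-positive value exceeded the lowest double-positive value. The log2 fold change was 1.10 (95% interval -0.12 to 2.33, limma adjusted p = 0.35), and without single-positive array 1 it was 0.30 (limma adjusted p = 0.695). The second Isl1 probe set was also lowest in single-positive array 1 (52.7) and gave 1.53. Lhx6, known from forebrain interneurons and the jaw, was dim, with 66.2, 119 and 47.2 in double-positive arrays, against 211, 302 and 119 in single-positive arrays. Its highest double-positive and lowest single-positive values nearly met, and its log2 fold change of -1.18 did not pass (95% interval -2.24 to -0.13, limma adjusted p = 0.222).

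Of the NK-like and Dlx genes 8 of 23 were tested and none passed, with log2 fold changes from -0.91 (Msx1) to 0.83 (Nkx2-9). Nkx2-3, a factor of gut mesenchyme and spleen, read 426, 520.3 and 482 in double-positive arrays, against 252, 282 and 407 in single-positive arrays, without overlap and with a log2 fold change of 0.59 (95% interval -0.22 to 1.39). Dlx2, of forebrain and branchial arches, read 76.9, 96.6 and 62.4 in double-positive arrays, against 121, 155 and 158 in single-positive arrays, also without overlap and with a log2 fold change of -0.72 (95% interval -1.61 to 0.18). Msx1, a target of BMP signalling, read 102, 781 and 475 in double-positive arrays, against 538, 506 and 1114 in single-positive arrays, and its groups overlapped. The 2 tested Nkx2-6 probe sets gave -0.37 and -1.54, and the groups did not overlap on the second, which read 61.6, 74.5 and 41.1 in double-positive arrays, against 299, 206 and 164 in single-positive arrays (limma adjusted p = 0.108).

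Of all 126 member probe sets 69 were tested and 1 passed, that of Zfhx4 (1.45%, against 3.42% of all probe sets tested). Groups without overlap were found for 15 of the 69 (21.7%, against 18.7%). Of 16 member genes with more than 1 tested probe set, all probe sets had the same sign in 10. The signs differed in Cux1, Cux2, Meis1, Six4, Tshz2 and Zfhx3, none of which passed.

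**Figure D4:**
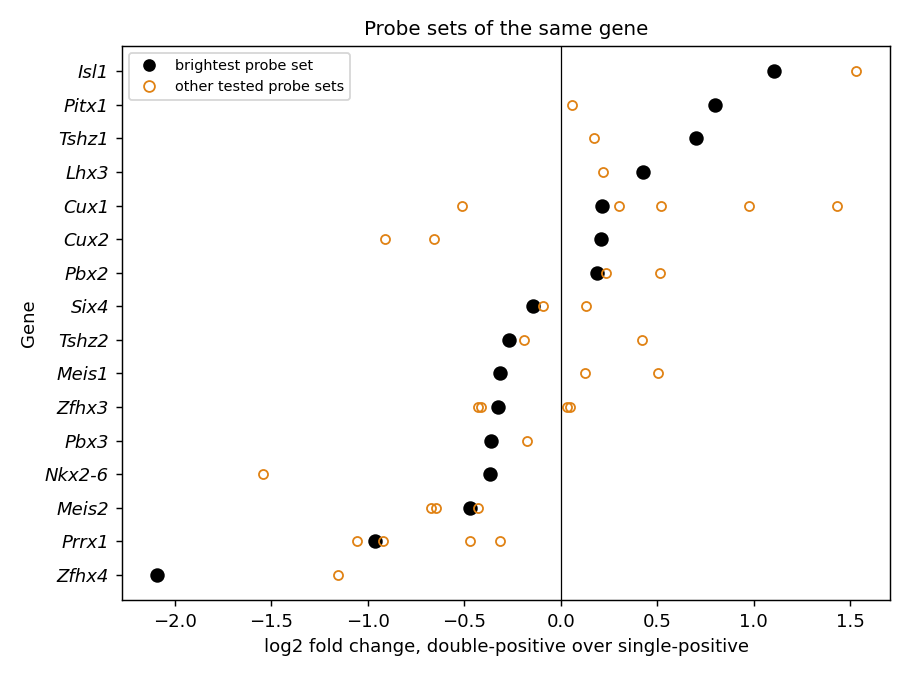
Log2 fold change, double-positive over single-positive, of each tested probe set of the 16 homeobox genes that have several, with the brightest probe set as a filled black point and the others as open orange points. Prrx1, Meis2 and Zfhx4 have all their points below 0, and Cux2 and Meis1 have the brightest point on the other side of 0 from the rest.

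The remaining 30 members had means below the signal filter and were not tested. Their single-array signals ran from 1.60 to 359, with a median of 42.2, and 11 of the 30 stayed below the filter signal on all 6 arrays. In 4 of the 30 the groups did not overlap, against 12.6% of all 4729 genes below the filter. Lhx8, known from forebrain cholinergic neurons and tooth mesenchyme, read 2.41, 4.83 and 1.60 in double-positive arrays, against 28.8, 359 and 96.6 in single-positive arrays. Nkx2-2, of ventral neural tube and pancreas, read 26.0, 10.5 and 2.53 in double-positive arrays, against 37.7, 46.9 and 49.7 in single-positive arrays. Dlx6 was likewise lower and Nkx2-4 higher in the double-positive arrays. In a fit of all 18193 genes without the filter, none of the 30 passed (lowest limma adjusted p = 0.0878, for Lhx8), and 5 of the 30 had an unadjusted p below 0.05, against 8.50% of the genes below the filter. At signals this low the offset sets the fold, so none is given.

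Among the partners of TALE, Tgif and Tshz proteins, all 15 genes were tested, 2 were higher, none was lower and 13 did not pass. Again 13.3% passed, beside 6.37% of all genes tested, and the median log2 fold change was 0.07. Sox9, a cartilage factor that acts with Tshz3 in mouse ureter muscle precursors, read 262, 645 and 566 in double-positive arrays, against 95.2, 134 and 109 in single-positive arrays, and the log2 fold change was 1.82 (SE 0.44 and adjusted p by limma = 0.0341). Smad3, the TGF-beta effector that Tgif proteins restrain, read 19814, 16677 and 23813 in double-positive arrays, against 12064, 11012 and 8063 in single-positive arrays, and the log2 fold change was 0.96 (SE 0.21 and adjusted p by limma = 0.0225). In neither gene did the groups overlap on the brightest of its 3 probe sets, but each call depended on the arrays and on the processing. Sox9 passed only when all arrays were used or double-positive array 1 was left out. Smad3 lost its call without double-positive array 1 or single-positive array 2 or 3. With the mean over probe sets neither gene passed. Sox9 also lost its call without a filter and with the filter at the 60th percentile, and Smad3 with median centring and without a variance trend. Myocd, the serum response factor coactivator of smooth muscle, read 49.7, 2035 and 941 in double-positive arrays, against 2968, 3442 and 2858 in single-positive arrays and did not pass (log2 fold change -2.55, SE 0.95 and adjusted p by limma = 0.181).

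Among homeobox genes of other families outside the Hox clusters, 30 of 64 listed genes were tested. Of the rest, 25 lay below the signal filter and 9 had no probe set with a single symbol. In the test 1 was higher, 2 were lower and 27 did not pass (10.0% passed, beside 6.37% of all genes tested). The median log2 fold change was -0.23. Hhex, a factor of liver, thyroid and endothelial progenitors, fell 8.68-fold in mean signal, to 227, 398 and 75.8 in double-positive arrays, against 2259, 1616 and 2208 in single-positive arrays (-3.20 on the log2 scale, SE 0.50 and adjusted p by limma = 0.00405). The endothelium and macrophage sums given with Lmo2 were lower in the same arrays, and their part was not tested. Hopx, an atypical homeodomain protein of heart development that does not bind DNA, fell to 1218, 1354 and 667 in double-positive arrays, against 4601, 4559 and 4178 in single-positive arrays (log2 fold change -2.08, SE 0.31 and adjusted p by limma = 0.00339). Hhex and Hopx passed whichever array was left out. Pou3f3, a POU factor of kidney and brain, read 247, 241 and 251 in double-positive arrays, against 89.8, 34.8 and 62.8 in single-positive arrays (log2 fold change 1.68, SE 0.42 and adjusted p by limma = 0.0402) and lost its call whichever array was left out.

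**Figure D5:**
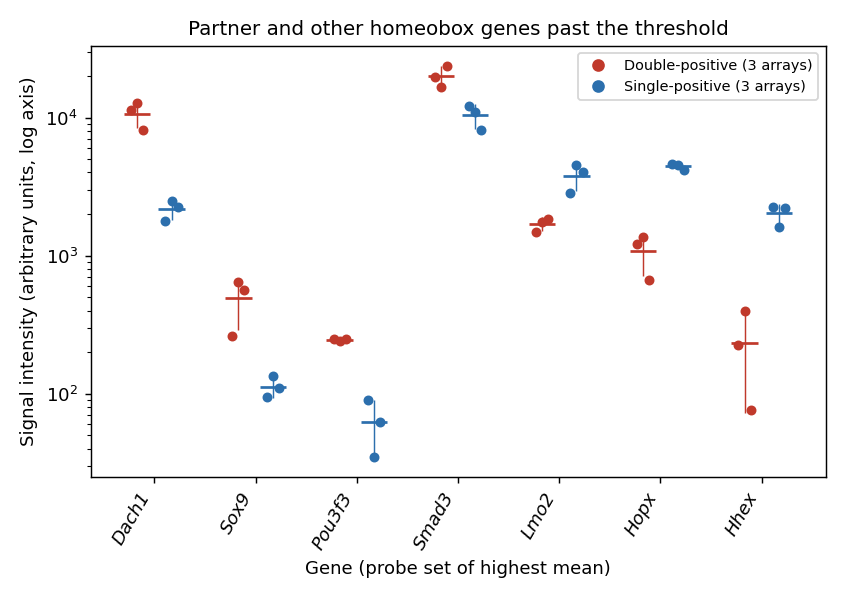
Signal intensity (log axis, arbitrary units) of the 7 partner and other homeobox genes that passed the test, on each of the 3 double-positive and 3 single-positive arrays, with horizontal lines at group means and vertical lines for 1 SD. Dach1, Sox9, Pou3f3 and Smad3 are higher and Lmo2, Hopx and Hhex lower in the double-positive arrays, and no gene's groups overlap.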

How the data were processed

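RNA of sorted bladder cells was amplified in 2 rounds and hybridised to Affymetrix MOE430 arrays, per the labels' protocols. The authors deposited a linear signal intensity per probe set, made with GCOS per the submitters' processing notes (version not given in the sources used here). Every array had the same trimmed mean (1500.01, with 2% trimmed at both ends), so a difference in total RNA per cell is not visible. Array medians differed 1.36-fold and were left as they were.

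Of 45037 probe sets beside 64 controls, 34945 carried 1 symbol in the platform annotation, 932 several and 9160 none. All 66 members matched RefSeq (GRCm38.p6), which was used for names, neighbours and sequences, since the array table names no build. Values became log2(signal + 25.042), where the offset is the 20th percentile. The brightest probe set stood for a gene if its mean exceeded 6.82 on that scale, the 40th percentile, and a second fit used all probe sets above it. Testing used limma 3.58.1 (R 4.3.3; lmFit and eBayes with trend), two-sided, and p-values were adjusted by Benjamini-Hochberg over everything tested. Differences are double-positive minus single-positive, and the offset makes those of dim genes too small. Signals of different probe sets cannot be compared as abundance. The procedure was tested on simulated data. It recovered 18% of 50 genes given a log2 change of 1 and 60% of 50 given a change of 2. Of its 129 calls 2 were false. The simulated noise was normal and independent between genes and arrays, and only 50 genes at each log2 change of 1, 2, 3 and 4 were altered. Deviations shared by many genes of an array were not simulated, so these rates need not hold for the real arrays. No 2 arrays shared more than 13 identical values. The small number of arrays limits the precision.

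The members, lists and tests were chosen with earlier results of these data known. Named genes were the members past the threshold, the 8 brightest, the 2 of smallest p in each class and the listed genes past the threshold; others were chosen after their values were seen. Alternatives covered normalization, offset, filter, variance trend, array weights, replicate block, choice of probe set and leaving out each array.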

Additional observations from a re-analysis of the deposited data

How the results depend on the processing

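The count of 2 members past the threshold (Prrx2 and Zfhx4) held under quantile normalization, median centring, both other offsets, the stricter filter, the mean over probe sets and the choice of unshared probe sets. It was 1, Zfhx4 alone, without a filter and without a variance trend, and 5 with array weights, which added Meis2, Prrx1 and Pitx1. Leaving out 1 array gave 1 to 5, the 5 without double-positive array 3. The share of all genes called moved the same way: it was 9.99% with array weights and 8.04% without double-positive array 3, and 3.46% to 5.67% in the settings with 1 member. The 1 member probe set became 2 with the filter at the 60th percentile and 4 with array weights, and 0 to 3 when 1 array was left out, 0 without single-positive array 1 or 2. The share of all probe sets called moved as well, from 3.42% to 5.08% with that filter and 6.07% with array weights. It was 4.15% without double-positive array 3, which gave the 3, and 1.64% and 1.56% without single-positive arrays 1 and 2. The 2 Six-family and LIM partners became 1 with median centring and 1 without a variance trend, and numbered 1 to 2 when 1 array was left out. The 2 TALE, Tgif and Tshz partners became 1 with median centring, without a filter, with the stricter filter and without a variance trend, and 0 with the mean over probe sets, and numbered 0 to 1 when 1 array was left out. The 3 other homeobox genes became 5 with array weights, 4 with quantile normalization (Zeb1 added) and 2, without Pou3f3, with no filter, the stricter filter and the mean over probe sets, and numbered 2 to 3 when 1 array was left out. With the replicate number as a block (replicate block) the counts were 2 members, 1 member probe set, 3 Six-family and LIM partners, 2 TALE, Tgif and Tshz partners and 3 other homeobox genes, Pou3f3 losing and Meox2 gaining the call. Eya1 was the added partner. The share called under the block was 7.53% of all genes and 3.32% of all probe sets, against 6.37% and 3.42% in the main fit. Of all genes, 5.16% were called with median centring, 7.48% with the stricter filter and 5.01% with the mean over probe sets. Same-numbered arrays deviated from their group means with r = 0.19, 0.05 and 0.02 across all genes tested and r = 0.56, -0.13 and 0.40 across the 36 members, and not every array correlated best with its own number, so the numbers were not taken as pairs.

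The log2 fold change of Meis1 turned positive with the mean over probe sets (0.11) and with unshared probe sets (0.13), that of Zfhx3 turned positive with unshared probe sets (0.049), and that of Six2 ran from -0.85 without single-positive array 1 to 0.046 without double-positive array 1. None of the 3 genes passed in any setting. The causes of these changes were not tested. Dim signals and 3 arrays a group limit what could be seen: the 95% intervals of most members that did not pass include changes of 1.5 times and more.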

Other observations

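Members of these families often lie side by side in the mouse genome. In the RefSeq table of GRCm38.p6, 18 of the 66 genes stood next to another member with no protein-coding gene between them, in 10 neighbouring pairs, and both genes of a pair were tested in 2 of the pairs. Six2 and Six3 had log2 fold changes of -0.46 and -0.44, and Irx3 and Irx5 had -0.81 and -0.06. None of the 4 passed the limma test, and their intervals are wide (-1.66 to 0.74 for Six2 and -2.91 to 1.30 for Irx3).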
